A study of Rattus norvegicus with 6 samples.

Results

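miR-122 is the liver microRNA (miRNA) made from the Mir122 hairpin, and both of its mature products, rno-miR-122-5p and rno-miR-122-3p, were followed in small RNA reads of rat liver. A tag is a distinct read sequence, and a tag was assigned to an arm when its first 18 bases equalled those of the mature arm. Of 1528721 different tags, 1747 belonged to miR-122, 1649 to the 5p arm and 98 to the 3p arm. The 2 arms were among 675 mature miRNA features defined in the same way from the 693 mature names of the rat table, of which 365 had at least 1 read. The tag with the highest summed count over the 6 libraries was a miR-122-5p tag.

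A miRNA hairpin is cut by Drosha in the nucleus and by Dicer in the cytoplasm, which leaves a duplex of a 5p and a 3p strand. One strand, the guide, is loaded into Argonaute and pairs with target mRNAs through its seed, while the other, the passenger, is mostly degraded. miR-122-5p is the guide strand of a hairpin expressed in hepatocytes, is known for its role in cholesterol and fatty acid metabolism and as a host factor of hepatitis C virus, and its 3′ end can be adenylated by the poly(A) polymerase GLD2.

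The RefSeq sequences of the hairpin and of both arms are shown because every read class described here is defined against them. In the hairpin the capitals mark the 2 mature arms, and in each arm the capitals mark the seed, bases 2 to 8.
Mir122 hairpin, chr18:61028817-61028901, plus strand, GRCr8: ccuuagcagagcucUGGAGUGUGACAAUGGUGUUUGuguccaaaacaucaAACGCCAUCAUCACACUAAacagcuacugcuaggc
rno-miR-122-5p, chr18:61028831-61028852, plus strand, GRCr8: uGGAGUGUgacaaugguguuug
rno-miR-122-3p, chr18:61028867-61028885, plus strand, GRCr8: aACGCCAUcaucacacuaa

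The hairpin has 85 bases, miR-122-5p 22 and miR-122-3p 19. The seed of each arm was shared by 0 other mature names of the 693 in the rat table. In the RefSeq gene table the hairpin overlapped a transcribed pseudogene, LOC134482951, and, on the opposite strand, the miRNA gene Mir3591, and the protein-coding genes nearest to it were Nedd4l on one side and Alpk2 on the other. Whether it lies in an exon or an intron was not analysed here. No read in any library matched the opposite strand of the hairpin, so 0 of 70778786 clean reads, which allows up to 0.0424 TPM (reads per 1000000 clean reads), matched Mir3591.

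Livers came from male Wistar rats, aged 4 months per the labels, an age that the study's methods give as older. The 3 rats with nonalcoholic fatty liver disease (NAFLD) were fasted and then fed a high-starch diet for a week, and the 3 normal rats had a standard diet. NAFLD livers were taken from those with higher hepatic triglycerides and normal livers at random, so the NAFLD libraries stand for the more affected rats of their diet group. Each library was made from 1 rat and held 11601058 to 11880695 clean reads, and TPM was the read count divided by the clean reads of its library, times 1000000. The NAFLD 2, NAFLD 3 and normal 2 libraries stood apart, because the rate of substitutions at position 4 of the read (the median over 50 abundant tags of other sequences) was 0.410% to 0.456% in them against 0.0558% to 0.0774% in the other libraries. Both groups had libraries on both sides, and differences within each side are given beside the main results as the low and the high substitution set.

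miR-122-5p was the most abundant miRNA in each of the 6 libraries and was lower in NAFLD. NAFLD 1, 2 and 3 had 445063, 459471 and 465119 TPM, and normal 1, 2 and 3 had 560716, 588535 and 595583 TPM. Every NAFLD library lay below every normal library. The means were 456551 ± 10342 (SD, n = 3) in NAFLD and 581611 ± 18436 (SD, n = 3) in normal liver, a fold of 0.785 and a log2 fold change of -0.35 ± 0.04 (SE), and the quasi-likelihood test of edgeR gave a Benjamini-Hochberg adjusted p of 0.000532. Of 167 miRNA features tested, miR-122-5p was the only 1 with an adjusted p under 0.05 (0.599%). At an unadjusted p under 0.05 there were 3, the others being miR-1b and miR-455-3p. Without overlap, 2 of 167 features (1.2%), miR-122-5p and miR-1b, were lower in NAFLD and 5 (2.99%) were higher. The exact two-sided permutation test on the TPM gave p = 0.1, the smallest that 3 libraries against 3 can give.

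The difference in mean TPM was -125060 over all libraries, -133086 within the low substitution set and -126240 within the high one. With edgeR's TMM scaling the log2 fold change was -0.43 with an adjusted p of 0.899, with DESeq2 it was -0.41 with an adjusted p of 0.981, and per read assigned to any miRNA it was -0.16 with an edgeR adjusted p of 0.148. With clean reads without miR-122 as library size it was -0.73, with an edgeR adjusted p of 1.28e-05. That size leaves out the reads being compared and was itself larger in NAFLD (log2 ratio 0.36), so the difference grows by arithmetic. In bulk liver, fewer hepatocytes and less miR-122 per hepatocyte cannot be told apart.

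**Figure D1:**
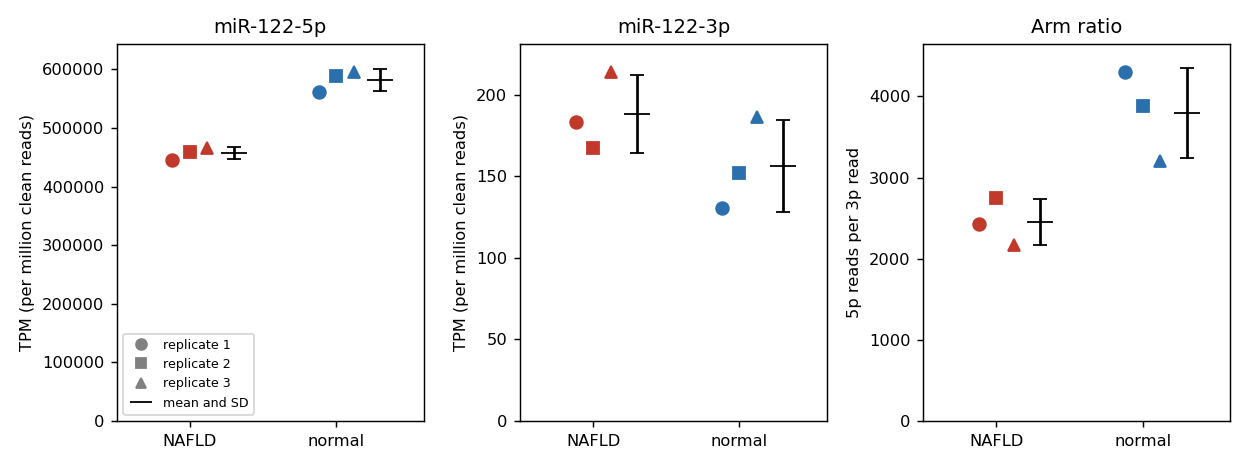
Each point is 1 library, by group (NAFLD or normal), with the group mean and SD; the panels show miR-122-5p in TPM, miR-122-3p in TPM and the number of miR-122-5p reads per miR-122-3p read, all on linear axes from 0. The groups are apart for miR-122-5p and for the arm ratio and overlap for miR-122-3p.

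Replicates of miR-122-5p lay close together. Its SD was 2.27% of the mean in NAFLD and 3.17% in normal liver, where the median over miRNAs with a mean of at least 10 TPM was 24.9% and 35.8%. Some of those miRNAs were lower in the high substitution set. For example, miR-29a-3p had 4693, 1737 and 1866 TPM in NAFLD and 3858, 1165 and 3814 TPM in normal liver. The part of the substitution sets in this spread was not tested. miR-122-5p had 3.85, 3.83 and 3.62 times the reads of the next feature, let-7a and let-7c counted together, in NAFLD and 4.76, 5.27 and 4.87 times in normal liver. The groups did not overlap in this ratio either. Wilson 95% intervals were narrow at these counts, from 444777 to 445349 TPM in NAFLD 1, and cover counting error only.

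Since TPM is a share of all clean reads, the other read classes were set beside miR-122-5p. Of all clean reads, miR-122-5p took 44.5%, 45.9% and 46.5% in NAFLD and 56.1%, 58.9% and 59.6% in normal liver. All other miRNAs together took 32.4%, 29.8% and 32.6% in NAFLD and 30.9%, 26.9% and 31.7% in normal liver, ranges that overlap (exact permutation p = 0.5). Reads assigned to no miRNA took 23.1%, 24.3% and 20.8% in NAFLD and 13.1%, 14.3% and 8.74% in normal liver. This class was higher in each NAFLD library than in any normal library (22.7% ± 1.74 against 12.02% ± 2.90, SD, n = 3 each, exact permutation p = 0.1). It includes miR-122-5p reads with 1 or 2 substitutions, which were 0.539% to 3.44% of clean reads in NAFLD and 0.560% to 3.76% in normal liver. Substituted reads of the other miRNAs also fall in this class, of whatever length, and are missing from the other miRNAs. For miR-192-5p, NAFLD 2 had 180447 reads and 265983 with 1 substitution allowed, against 327956 and 330675 in NAFLD 1. Reads of no miRNA are thus not all from other kinds of RNA.

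By length, reads of no miRNA with 20 to 24 nt had the largest difference, with 13.7%, 17.2% and 14.3% of clean reads in NAFLD and 9.40%, 11.3% and 6.77% in normal liver, without overlap. Those with 25 nt or more were 4.75%, 4.26% and 4.37% in NAFLD and 1.19%, 2.27% and 1.01% in normal liver, also without overlap. Those with 18 or 19 nt were 4.62%, 2.75% and 2.20% in NAFLD and 2.47%, 0.641% and 0.958% in normal liver, and the groups overlap. The part of these reads in the lower share of miR-122-5p was not tested. Within miRNA reads alone, miR-122-5p made up 57.9%, 60.7% and 58.8% in NAFLD and 64.5%, 68.6% and 65.3% in normal liver, so that the groups remained apart on this scale. Per read of any other miRNA there were 1.37, 1.54 and 1.43 miR-122-5p reads in NAFLD and 1.82, 2.19 and 1.88 in normal liver, a log2 ratio of the means of -0.44 (exact permutation p = 0.1).

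**Figure D2:**
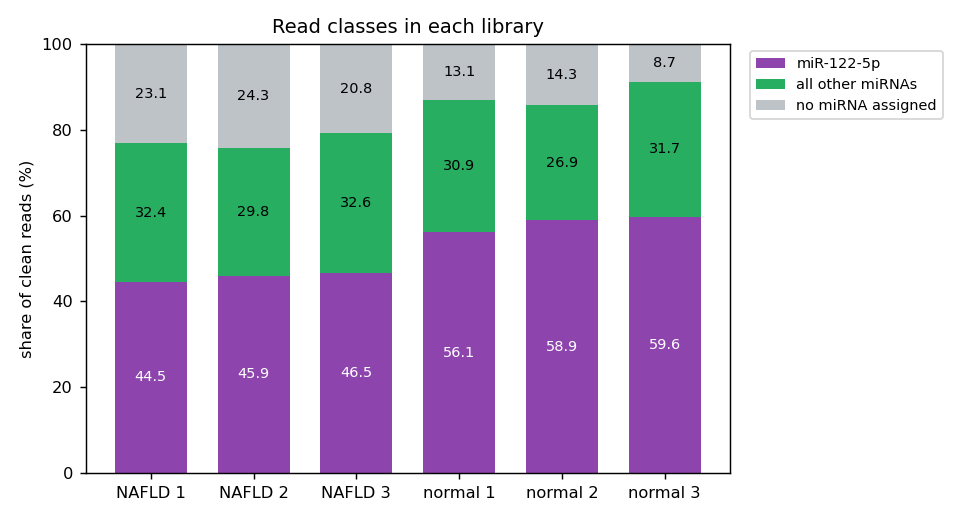
Stacked bars give the share of clean reads (%) in each library that was miR-122-5p, any other miRNA or no miRNA. The miR-122-5p part spans 44.5% to 46.5% in NAFLD and 56.1% to 59.6% in normal liver, and the part assigned to no miRNA is larger in all 3 NAFLD libraries.

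The tag forms that held at least 1% of the miR-122-5p reads are shown because they give the 3′ ends of the arm. Letters are those of the reads, in which t stands for u of the RNA, and capitals mark bases that do not continue the hairpin.
miR-122-5p, 23 nt: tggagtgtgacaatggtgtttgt
miR-122-5p, 22 nt, the RefSeq form: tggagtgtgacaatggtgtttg
miR-122-5p, 23 nt with an added A: tggagtgtgacaatggtgtttgA
miR-122-5p, 21 nt: tggagtgtgacaatggtgttt
miR-122-5p, 24 nt with an added U: tggagtgtgacaatggtgtttgtT

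In this order they held 37.9%, 31.5%, 13.5%, 9.67% and 1.51% of the miR-122-5p reads. The most abundant form was thus 1 base longer than the RefSeq arm. Its last base is also the next base of the hairpin, so a later Dicer cut and an added U give the same read and cannot be told apart. The form of 22 nt had 31.7%, 30.0% and 28.4% of the arm in NAFLD and 32.7%, 31.8% and 33.7% in normal liver. These shares did not overlap (30.0% ± 1.68 against 32.7% ± 0.932, SD, n = 3 each, exact permutation p = 0.1). The shares of the other forms listed overlapped, and form shares of other miRNAs were not computed as a background. In mean read length 8 of 35 miRNAs (22.9%), and in the share with a single untemplated A 7 of 35 (20%), were lower in NAFLD without overlap. In TPM, the log2 ratio of NAFLD over normal means was -0.31, -0.47, -0.43, -0.17 and -0.16 for the 5 forms in the order above. The first 3 did not overlap between groups (exact permutation p = 0.1 each), and the forms of 21 and 24 nt overlapped. Over all miRNA features, 2 of 167 (1.2%) were lower in NAFLD without overlap. The arm as a whole was 1 of these, so the TPM of its main forms repeats that difference and is not a result about 3′ ends.

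The mean length of miR-122-5p reads was 22.49, 22.53 and 22.60 nt in NAFLD and 22.48, 22.59 and 22.50 nt in normal liver. The ranges overlap, and the difference was 0.0147 ± 0.0427 nt (SE), with a limma adjusted p of 0.941 over 35 miRNAs. A single untemplated A, the addition that GLD2 is known to make, stood at the end of 13.5%, 13.6% and 14.3% of reads in NAFLD and of 14.2%, 15.4% and 14.03% in normal liver. On the log2 odds scale the difference was -0.08 ± 0.07 (SE), with a limma adjusted p of 0.405. In limma, 0 of the 35 miRNAs (0%) had an adjusted p under 0.05 for this share and 6 had an unadjusted one. Without overlap, 7 of 35 (20%) were lower in NAFLD, miR-122-5p not among them.

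Other tails that do not continue the hairpin were less frequent, and a U added after the RefSeq end is not among them. A single untemplated U ended 2.17%, 2.41% and 2.79% of miR-122-5p reads in NAFLD and 2.33%, 2.32% and 1.89% in normal liver. A single C or G, given as a measure of read error, ended 0.156% to 0.176% of reads in each library, so the added A was far above this level in all 6. Tails of 2 or more bases were on 3.44%, 3.82% and 5.35% of reads in NAFLD and on 3.25%, 4.04% and 2.94% in normal liver, and the groups overlap.

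**Figure D3:**
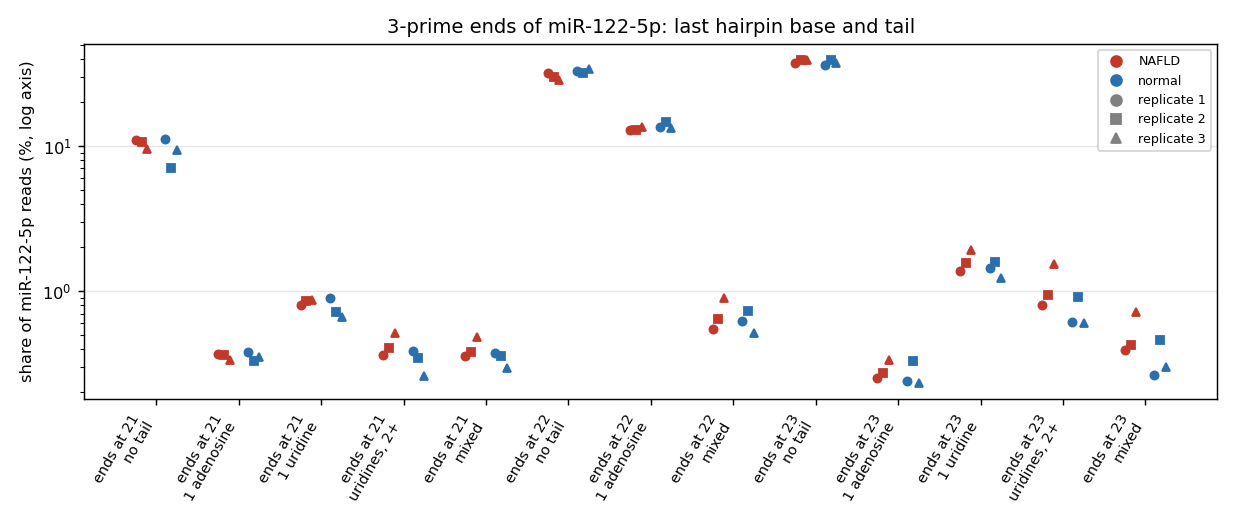
The share of miR-122-5p reads (%, log axis) is plotted for each combination of the last base that continues the hairpin (21, 22 or 23) and the tail after it, with 1 point per library coloured by group. The forms without a tail and the single adenosine after base 22 (12.8% to 14.7%) lie above the other tails in all 6 libraries.

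The 5′ end of miR-122-5p was nearly uniform. Among reads that began within 3 bases of the RefSeq start, 99.97% to 99.99% began exactly there in each library, so the seed shown above was that of nearly all reads. The 5′ end of miR-122-3p was less uniform. A start 1 base earlier, which moves the seed by 1 base, made up 20.8%, 13.4% and 12.96% of such reads in NAFLD and 16.6%, 9.34% and 19.5% in normal liver (exact permutation p = 0.9).

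miR-122-3p was read at a far lower level, with 1545 to 2527 reads per library. Its values were 183, 167 and 214 TPM in NAFLD and 130, 152 and 186 TPM in normal liver. The groups overlap, with means of 188 ± 23.6 and 156 ± 28.2 TPM (SD, n = 3 each). Its log2 fold change was 0.27 ± 0.40 (SE), with an edgeR adjusted p of 0.986 (exact permutation p = 0.3 on the TPM), and it was -0.12 with clean reads without miR-122 as library size. Among miRNA features, miR-122-3p ranked between 28 and 38 in the 6 libraries.

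The arm ratio compares both products of the same hairpin within a library and so does not depend on the library size. There were 2431, 2744 and 2174 miR-122-5p reads per miR-122-3p read in NAFLD and 4302, 3877 and 3199 in normal liver. Each NAFLD library was below each normal library, with means of 2450 ± 285 and 3793 ± 556 (SD, n = 3 each). The difference in the log2 ratio was -0.63 ± 0.22 (SE), with a limma adjusted p of 0.141 over the 7 hairpins with enough reads on both arms, and the exact permutation test on the ratio gave p = 0.1. Within the low and the high substitution sets the log2 difference was -0.61 and -0.67. No hairpin (0%) had a limma adjusted p under 0.05 and 1, Mir122, had an unadjusted one. The same hairpin was the only 1 of 7 (14.3%) that was lower in NAFLD without overlap. The other 6 hairpins had differences from -0.60 (Mir30a) to 0.40 (Mirlet7d).

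The main miR-122-3p forms are shown because their 3′ ends differed between the groups. Capitals again mark bases that do not continue the hairpin.
miR-122-3p, 22 nt: aacgccatcatcacactaaaca
miR-122-3p, 22 nt with an added U: aacgccatcatcacactaaacT
miR-122-3p, 19 nt, the RefSeq form: aacgccatcatcacactaa
miR-122-3p, 21 nt: aacgccatcatcacactaaac
miR-122-3p, 23 nt with an added U: aacgccatcatcacactaaacaT

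These forms held 46.3%, 14.4%, 9.48%, 6.69% and 5.28% of the arm's reads, so the leading form ended 3 bases beyond the RefSeq end. Another 5 forms, ending at bases 19 to 22 with or without added A or U, held 1.18% to 3.56% each. The RefSeq form made up 13.2%, 11.6% and 13.9% of miR-122-3p reads in NAFLD and 6.73%, 5.94% and 3.80% in normal liver. It had 24.1, 19.4 and 29.7 TPM in NAFLD and 8.77, 9.01 and 7.07 TPM in normal liver, from 84 to 351 reads per library. The groups were apart on both scales, with a log2 ratio of the mean TPM of 1.56 (exact permutation p = 0.1). Reads of no miRNA with 18 or 19 nt were 3.19% ± 1.27 of clean reads in NAFLD and 1.36% ± 0.979 in normal liver (SD, n = 3 each, exact permutation p = 0.2), and their part in this difference was not tested.

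The templated form of 22 nt had 44.1%, 45.9% and 38.7% of the arm in NAFLD and 50.2%, 49.2% and 52.5% in normal liver. In TPM this form was 80.1 ± 3.00 in NAFLD and 79.2 ± 16.7 in normal liver (SD, n = 3 each), a log2 ratio of 0.02 (exact permutation p = 0.9). Its share thus differed without overlap while its TPM overlapped. The form of 22 nt with an added U was apart in TPM only. It had 27.7, 27.3 and 30.3 TPM in NAFLD and 16.9, 21.7 and 24.5 TPM in normal liver. The form of 23 nt with an added U was apart in share only. It had 5.08%, 4.22% and 4.67% in NAFLD and 5.83%, 6.66% and 5.61% in normal liver. Shares are parts of the same arm, so a higher share of the RefSeq form lowers the others. No background of form shares was computed.

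Reads of miR-122-3p were shorter in NAFLD. Their mean length was 21.48, 21.58 and 21.42 nt in NAFLD and 21.72, 21.78 and 21.78 nt in normal liver, without overlap. The difference was -0.264 ± 0.0461 nt (SE), with a limma adjusted p of 0.0495 over 35 miRNAs, and it was -0.265 and -0.282 nt within the low and the high substitution sets. miR-122-3p was the only 1 of the 35 with an adjusted p under 0.05 (2.86%), and 8 of 35 (22.9%) were lower in NAFLD without overlap. The limma adjusted p was 0.256 without NAFLD 1, 0.120 without NAFLD 3, 0.0985 without normal 1, 0.236 without normal 3, 0.139 with the replicate number as a block and 0.0749 with the substitution set as a covariate. The direction was the same in each of these fits.

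**Figure D4:**
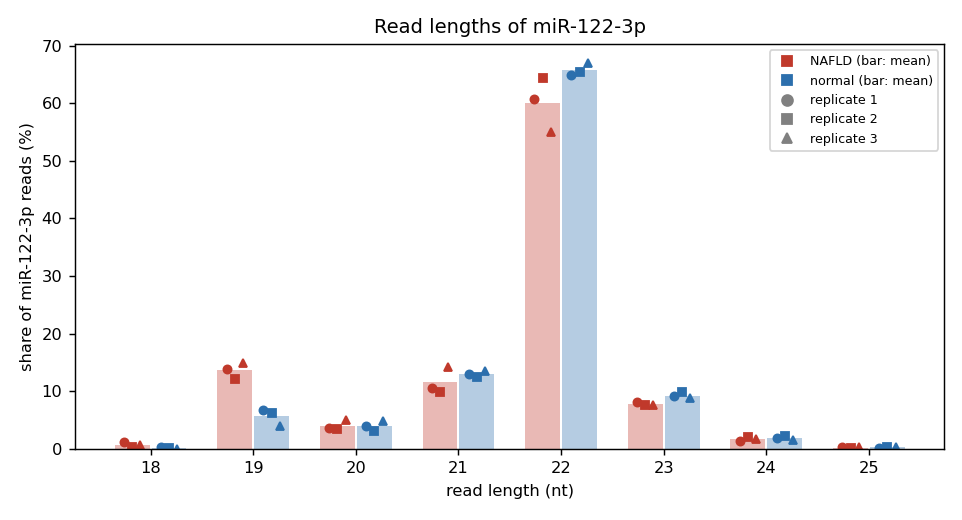
The share of miR-122-3p reads (%) is plotted by read length (nt), with 1 point per library and bars for the means of the NAFLD and normal groups. At 19 nt the NAFLD libraries lie at 12.2% to 14.8% and the normal libraries at 4.02% to 6.73%.

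Among additions that do not continue the hairpin, U was the main one on miR-122-3p. A single U ended 22.9%, 23.7% and 23.9% of its reads in NAFLD and 21.2%, 24.4% and 22.02% in normal liver, and the groups overlap. A single A ended 1.23% to 2.40% of reads over the 6 libraries. On miR-122-5p a single untemplated A was above a single untemplated U in every library. The 2 arms cannot be compared in this, because an added base that continues the hairpin is not counted. This leaves out a U after the RefSeq end of miR-122-5p. It also leaves out an A after the RefSeq end of miR-122-3p or after its 21 nt form.

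Because miR-122-5p held so large a share of the reads, every other miRNA's TPM depends on it. Clean reads other than miR-122 numbered 6435728, 6354111 and 6316288 in NAFLD and 5205672, 4882565 and 4802544 in normal liver. Scaled to all clean reads, the median log2 ratio of the 165 other tested miRNAs was 0.02, with 84 higher and 81 lower in mean. Scaled to clean reads without miR-122 the median was -0.36, with 20 higher and 145 lower. Relative to the median on the first scale the log2 ratio of miR-122-5p was -0.37, and 21 of the 165 others had a lower ratio than miR-122-5p. Exact matching of the first 18 bases leaves out more reads of some miRNAs in the high substitution set. For miR-29a-3p, NAFLD 2 had 20426 reads and 36197 with 1 substitution allowed, against 54448 and 54899 in NAFLD 1. As edgeR log2 fold changes, the others had a median of 0.02 in the main fit. It was 0.15 with 1 substitution allowed and 0.24 with the substitution set as a covariate. The 10 most abundant other miRNAs, among them the let-7 members, miR-192-5p, miR-29a-3p, miR-101b-3p and miR-21-5p, had log2 ratios of -0.32 to 0.34 on the first scale and of -0.69 to -0.04 on the second. None of these 10 had an edgeR p under 0.05, adjusted or not.

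**Figure D5:**
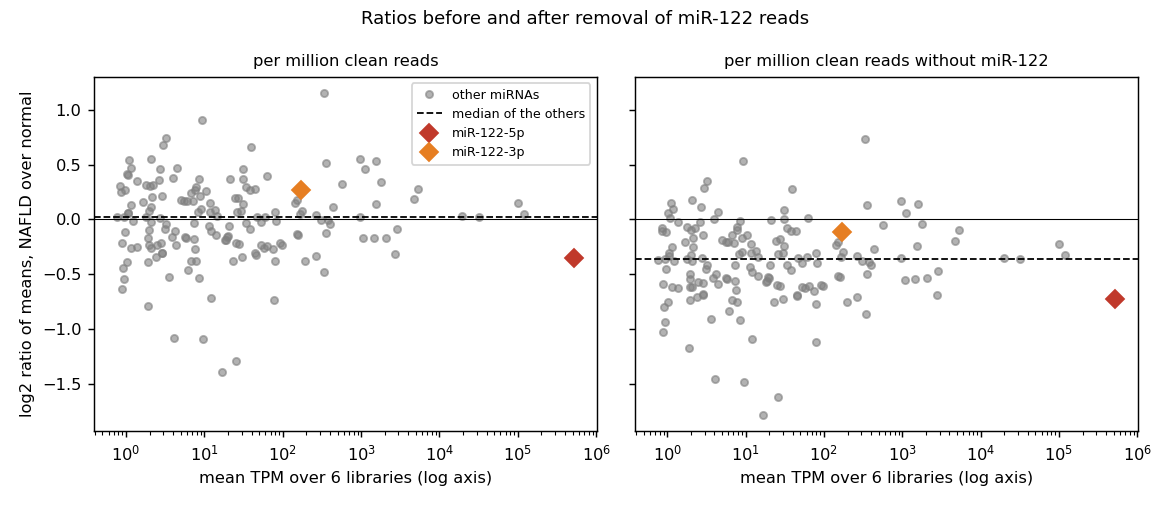
Each point is 1 miRNA, with its mean TPM over the 6 libraries (log axis) against the log2 ratio of NAFLD over normal means, scaled to all clean reads on the left and to clean reads without miR-122 on the right; diamonds are the miR-122 arms and the dashed line is the median of the others. The median moves from 0.02 to -0.36.

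Marker miRNAs of liver cell types were set beside this. Of 7 hepatocyte-enriched miRNAs listed, 6 were in the table, 5 were tested, and 1, miR-122-5p, had an edgeR adjusted p under 0.05. Without miR-122 the summed level of the list was 15756 to 29133 TPM in NAFLD and 11438 to 26216 TPM in normal liver, which overlap. Nearly all of that sum was miR-192-5p, with 28270, 15345 and 15925 TPM in NAFLD and 21523, 11116 and 25426 TPM in normal liver. Its level was lower in NAFLD 2, NAFLD 3 and normal 2, the high substitution set. In normal 2 it had 131956 reads and 194705 with 1 substitution allowed, against 302083 and 304169 in normal 3. Scaled to all clean reads, the log2 ratio was 0.04 for miR-192-5p and -0.04 for miR-194-5p, both under the control of HNF factors in liver, and -0.38 for miR-148a-3p, a regulator of lipoprotein receptors. The endothelial list summed to 23.5 to 48.4 TPM in NAFLD and 14.7 to 41.1 TPM in normal liver, the stellate, fibroblast and smooth muscle list to 532 to 665 and 342 to 593 TPM, and the immune list to 26.5 to 39.4 and 20.2 to 42.7 TPM. The erythroid list summed to 23.98 to 66.98 and 26.3 to 42.9 TPM, and the bile duct list to 0.765 to 2.03 and 1.77 to 2.95 TPM. Of these 5 lists, 2 of 2, 5 of 5, 5 of 6, 2 of 3 and 2 of 4 members were in the table, none of them at 0 in all 6 libraries. Low counts kept miR-142-3p, miR-155-5p and miR-141-3p out of the test, and none of the 2, 5, 3, 2 and 1 members tested had an edgeR p under 0.05, adjusted or not. Their part in the miR-122-5p difference was not tested.

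By the root mean square difference of log2(TPM + 1) over the 6 libraries, each miRNA centred on its own mean, the 5 of 86 miRNAs most like miR-122-5p were miR-186-5p (0.202), miR-101b-3p (0.206), let-7a with let-7c (0.207), let-7b (0.209) and miR-339-3p (0.230). The median over the 86 was 0.486. The partner arm, miR-122-3p, came 21st with 0.350. The measure also ranks high any miRNA that varies little between libraries, so a low value does not show a shared pattern. In the order above, the log2 fold changes of the 5 were -0.10, -0.32, 0.05, 0.03 and -0.03, against -0.35 for miR-122-5p.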

How the data were processed

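Gel-purified liver small RNA was sequenced by the study, and reads with low quality, no insert, poly A or under 18 nt were removed. The authors deposited the raw read count of every remaining tag per library, not normalized and not filtered for a genome match. The submitters' processing notes name the Rnor_5.0 and rn5 builds. Sequences and coordinates here are from the RefSeq tables of GRCr8.

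Tags were assigned to 675 features by their first 18 bases (7 mature sequences under 18 bases were left out, and 12 features hold more than 1 name). Reads with a substitution in those bases were left out of the counts. edgeR 4.0.16 (R 4.3.3) was fitted to the counts by quasi-likelihood after filterByExpr, with clean reads as library size and an adjusted p threshold of 0.05, and its standard errors were derived from the log2 fold change and the F statistic. Length, tails (log2 odds, pseudocount 0.5) and arm ratios were tested with limma 3.58.1 on 35 miRNAs with a mean of at least 1000 reads and on 7 hairpins with at least 100 on the minor arm. Single values had exact two-sided permutation tests (Python 3.11.15, pandas 2.3.3, numpy 2.4.6, scipy 1.17.1). DESeq2 1.42.0 was an alternative. The fits were tested on simulated data.

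The members, lists and tests were chosen with earlier results of these data known. The named miRNAs follow a rule: both arms with every form of at least 1% of their reads, the 10 most abundant others, the hepatocyte list and the 5 most alike. Results were recomputed under alternatives, which gave 95 planned values and 15 added after seeing the data. The mean length of miR-122-3p was itself taken up as a result after seeing the data, as were all its alternatives. Every pair of libraries within a group differed beyond counting noise. Deposited columns of other samples numbered 0. qRT-PCR, targets and miRNA prediction were not analysed here.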

Additional observations from a re-analysis of the deposited data

How the results depend on the processing

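The log2 fold change of miR-122-5p kept its direction under all 16 alternatives and its call under 13. It lost the call with TMM (-0.43), with DESeq2 (-0.41) and per read of any miRNA (-0.16). With clean reads without miR-122 as library size, which enlarges the difference by arithmetic, it was -0.73, and -0.76 with the substitution covariate added. Without 1 library each it was -0.37 to -0.33, with edgeR adjusted p of at most 0.0114. That of miR-122-3p turned to -0.12 with clean reads without miR-122 as library size and to -0.13 with the substitution covariate added, and was 0.15 to 0.42 without 1 library each. The number of miRNAs called was 0 with TMM, 0 per read of any miRNA and 3 with the library size without miR-122 and the covariate. It was 1 to 2 without 1 library each. DESeq2 called 1, lower in NAFLD, which was not miR-122-5p. The mean length of miR-122-5p turned to -0.00403 nt for hairpin-matching reads and -0.0144 nt with the covariate, and was -0.0150 to 0.0498 nt without 1 library each. That of miR-122-3p was -0.273 nt with the covariate and -0.308 to -0.227 nt without 1 library each, and 6 of 10 alternatives ended the call. The median of the other miRNAs was -0.36 scaled to reads without miR-122 and -0.22 to 0.16 without 1 library each. As an edgeR log2 fold change this median was 0.15 with 1 substitution allowed and 0.24 with the substitution covariate, against 0.02 in the main fit. The arm ratio (11 alternatives) and the share with a single A (9) kept their direction and did not pass the threshold. The TPM difference of miR-122-5p kept its direction in 14, where the permutation test cannot pass the threshold. In each case the cause was not tested.

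Same-numbered libraries had correlations of 0.149, 0.340 and -0.541 in their deviations from the group means, so the replicate numbers were not taken to pair rats. With the replicate number as a block, the log2 fold change was -0.35 for miR-122-5p and 0.28 for miR-122-3p, 1 miRNA was called, the log2 arm ratio differed by -0.63, the mean length by 0.0147 nt for miR-122-5p and by -0.264 nt for miR-122-3p (call lost), and the log2 odds of a single A by -0.08. An exact sign-flip permutation test over the 3 pairs of the miR-122-5p TPM gave p = 0.25, the smallest it can give.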

Other observations

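Substitutions at positions 3 and 4 of miR-122-5p separated the libraries by substitution set and not by group. The sets were defined by position 4 of other reads, so for that position this is not an independent result. Positions are counted from 1 at the 5′ end of the arm, with the RefSeq base first. Reads with A4C numbered 64, 44380 and 37868 in NAFLD and 64, 50066 and 81 in normal liver. Reads substituted at positions 3 and 4 together numbered 5, 122766 and 99429 in NAFLD and 3, 136941 and 3 in normal liver, most of them G3A with A4G (4, 74862 and 59028 in NAFLD and 3, 82986 and 2 in normal liver). Reads with 1 substitution in the seed were 0.408%, 3.82% and 3.12% of miR-122-5p reads in NAFLD and 0.325%, 3.27% and 0.307% in normal liver. Counting reads with up to 2 substitutions as miR-122-5p gave 479480 ± 25134 TPM in NAFLD and 597907 ± 29970 TPM in normal liver (SD, n = 3 each), still without overlap. This count was chosen after seeing the data.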
